A study of Mus musculus with 23 samples.

Results

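Otx2, Irx3, Tshz1 and Prtg are genes that mark different places and stages of the early embryo. Their RNA was followed while mouse embryonal carcinoma cells went through a protocol for smooth muscle differentiation. They were picked by name, with their levels in the 4 groups already known, so their changes over those groups are given as a description and carry no test. They are 4 of the 8683 genes measured by a probe with 1 gene symbol, and 5 of 20280 probes, since Otx2, Irx3 and Tshz1 have 1 probe each and Prtg has 2.

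Otx2 encodes a homeodomain transcription factor of the epiblast and later of the forebrain and midbrain, and it is required for the head to form. Irx3 belongs to the Iroquois homeodomain factors, which divide the neural plate and neural tube into territories. Tshz1 is a zinc finger factor related to Drosophila Teashirt, which specifies the trunk of the fly. Prtg encodes protogenin, a transmembrane receptor of the immunoglobulin superfamily related to the netrin receptor DCC, found on early neural and mesodermal cells of the embryo. Retinoic acid is a natural signal of the trunk that gives neural tissue a more posterior character, and it is known to lower Otx2 in embryos and in embryonal carcinoma cells.

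The cells were A404, 1 clone of the P19 mouse embryonal carcinoma line. As background, the clone carries a puromycin resistance gene under the Acta2 promoter, Acta2 being the alpha-actin gene of smooth muscle, so that puromycin keeps cells in which that promoter is active. Control cells (6 arrays) were undifferentiated and taken near confluence at the start. RA48 (5 arrays) and RA96 (6 arrays) cells received 1 µmol/L all-trans retinoic acid at about 30% confluence and were taken after 48 and 96 hours. Puromycin cells (6 arrays) had 96 hours of retinoic acid and then 48 hours of puromycin. Whether retinoic acid stayed in the medium, and how dense these plates were, is not given. Cell density and retinoic acid therefore cannot be told apart against Control. Each replicate came from 5 to 6 plates, and nothing says that replicates were separate cultures. The p-values therefore reflect array-to-array spread, which may be technical only.

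Every array compared cell RNA, labelled with Cy5, with RNA of whole mouse embryos of day 17.5, labelled with Cy3, with no dye swap. A value is the log2 ratio of cells over embryo, so 0 means equal signal, 1 unit is a 2-fold difference, and values of different genes cannot be set against each other. The logarithm's base, the ratio's direction and any centring are unstated. The deposited values were read as log10 of cells over embryo and were not centred further. Intensities were not used, so it cannot be said whether a ratio near 0 came from a probe near background in both channels. In bulk RNA, fewer cells of a type and less RNA per cell cannot be told apart.

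The group labels were checked on Acta2 and on the pluripotency gene Nanog. Acta2 averaged -4.90, -0.34, 1.87 and 2.40 in Control, RA48, RA96 and Puromycin cells, and Nanog averaged 0.70, -0.02, -0.46 and -0.45. The arrays also formed 2 sets, which no label names. After group means were subtracted, the first principal component held 48.9% of the variance within groups and separated 11 arrays (replicates 1 to 3 of Control, RA48 and Puromycin, and RA96 replicates 1 and 3) from the other 12. Arrays of 1 group correlated at 0.83 to 0.98 within a set and at 0.70 to 0.85 across sets. Each set holds all 4 groups, so each change of the 4 members is also drawn within the first and the second set. The text gives part of these values.

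The sequences around start sites of Otx2, Irx3 and Prtg are shown, and that of Tshz1 was not used here. They are shown because retinoic acid acts through receptors that bind DNA half-sites, written AGGTCA or AGTTCA, and because Otx-type homeodomains bind a core written GGATTA. The windows run from 250 bases before to 50 bases after a start site, are written 5′ to 3′ on the strand of the gene, and come from RefSeq on build GRCm38.p6. Capitals mark a match to 1 of the 3 motifs, searched on both strands. Among 32851 such windows of mouse genes, 16.3% hold AGGTCA, 14.0% hold AGTTCA, 27.7% hold either half-site and 7.06% hold GGATTA.
Otx2 start site 1 (chr14:48667595-48667894, minus strand): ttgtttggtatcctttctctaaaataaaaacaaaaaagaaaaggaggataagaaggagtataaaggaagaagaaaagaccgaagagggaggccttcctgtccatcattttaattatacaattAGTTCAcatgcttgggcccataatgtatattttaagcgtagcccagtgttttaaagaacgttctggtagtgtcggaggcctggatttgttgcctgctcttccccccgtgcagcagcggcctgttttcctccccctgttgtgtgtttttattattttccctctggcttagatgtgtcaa
Otx2 start site 3 (chr14:48665060-48665359, minus strand): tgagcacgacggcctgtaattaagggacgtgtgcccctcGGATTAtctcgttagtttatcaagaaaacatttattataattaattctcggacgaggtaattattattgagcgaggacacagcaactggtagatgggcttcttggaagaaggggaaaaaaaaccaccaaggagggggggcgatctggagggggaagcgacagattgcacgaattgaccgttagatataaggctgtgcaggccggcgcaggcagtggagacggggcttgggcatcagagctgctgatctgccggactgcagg
Irx3 (chr8:91801605-91801904, minus strand): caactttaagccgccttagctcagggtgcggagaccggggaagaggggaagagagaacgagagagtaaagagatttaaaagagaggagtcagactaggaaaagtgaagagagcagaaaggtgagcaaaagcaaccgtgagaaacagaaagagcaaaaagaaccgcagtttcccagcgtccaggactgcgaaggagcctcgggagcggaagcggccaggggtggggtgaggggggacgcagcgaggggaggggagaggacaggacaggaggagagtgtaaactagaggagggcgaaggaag
Prtg (chr9:72807024-72807323, plus strand): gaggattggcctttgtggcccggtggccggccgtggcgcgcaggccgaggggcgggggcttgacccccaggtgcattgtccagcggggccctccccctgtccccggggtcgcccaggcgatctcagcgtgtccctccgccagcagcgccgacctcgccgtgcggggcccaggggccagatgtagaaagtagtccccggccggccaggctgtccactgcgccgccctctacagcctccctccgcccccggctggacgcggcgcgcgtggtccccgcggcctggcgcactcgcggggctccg

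Otx2 has 4 annotated start sites. The window of the first held AGTTCA at position -128, the window of the third held GGATTA at -211, and the other 2 windows held none of the 3 motifs. The single windows of Irx3 and Prtg held none of them either. The windows differed in base composition, with 76.7% G and C and 35 CpG in Prtg, 56.0% and 14 in Irx3, and 41.7% and 6 in the first Otx2 window, where the median window has 52.7% and 7. A match describes these letters only, and says nothing of binding.

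Otx2 RNA stood high above the embryo reference in undifferentiated cells and was near the reference in all cells that had received retinoic acid. Its log2 ratio ran from a lowest value of 2.66 to a highest of 3.01 in Control cells (median 2.90). The 5 RA48 arrays read 0.18, 0.18, 0.19, -0.04 and 0.05. RA96 arrays lay between -0.23 and 0.05 (median -0.10), and Puromycin arrays between -0.05 and 0.26 (median 0.06). The highest treated array lay 2.40 below the lowest Control array, while the 3 treated groups overlapped each other.

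Otx2 averaged 0.11 ± 0.10 in RA48 cells (SD, n = 5) against 2.88 ± 0.13 in Control cells (SD, n = 6). The difference was -2.77 ± 0.08 (SE), a level 6.82-fold lower in RA48 cells, and it was -2.60 within the first array set and -2.97 within the second. Among the 8683 genes this was the 6th largest negative difference of that step. The later steps were small, at -0.20 ± 0.08 for RA96 against RA48 and 0.17 ± 0.08 for Puromycin against RA96, with overlapping arrays. The end of the protocol stood where the first 48 hours had left it, at -2.80 ± 0.08 for Puromycin against Control cells. The order of the levels was Control first, and then RA48, Puromycin and RA96, whose arrays overlapped when both array sets were pooled. Within each set all RA96 arrays lay below those of RA48 and Puromycin, which overlapped each other. RA96 arrays read -0.09 to 0.05 in the first set and -0.23 to -0.06 in the second.

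**Figure D1:**
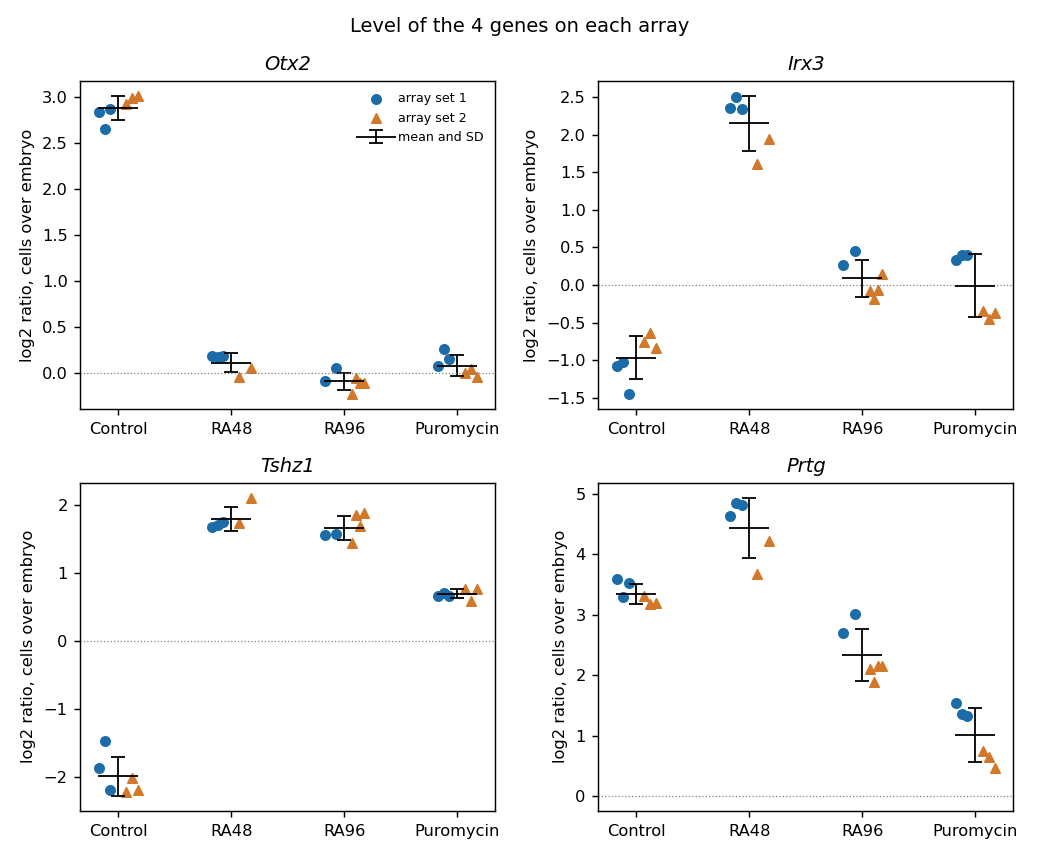
Log2 ratio of cells over embryo (y axis) of Otx2, Irx3, Tshz1 and Prtg on each of the 23 arrays, by group in the order of the protocol (x axis), where circles are the first array set, triangles the second, and bars the group mean and SD. Otx2 is high in the Control group alone, Tshz1 is low in the Control group alone, Irx3 is highest in RA48 cells, and Prtg is highest in RA48 cells and lowest in Puromycin cells.

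Irx3 RNA was below the embryo reference in Control cells, was above it at 48 hours and was near it at 96 hours. Its log2 ratio lay between -1.46 and -0.64 in Control cells (median -0.94). The RA48 arrays read 2.36, 2.50, 2.35, 1.61 and 1.94, all above every array of the other groups. RA96 arrays lay between -0.19 and 0.45 (median 0.04) and Puromycin arrays between -0.46 and 0.40 (median -0.01), and these overlapped. All of them were above the highest Control array.

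Irx3 averaged 2.15 ± 0.37 in RA48 cells (SD, n = 5) against -0.97 ± 0.29 in Control cells (SD, n = 6). The difference was 3.12 ± 0.20 (SE), a level 8.68-fold higher, the 19th largest positive difference among all genes. Irx3 was then 4.18-fold lower in RA96 than in RA48 cells (-2.06 ± 0.20, SE), the 9th largest negative difference of that step. Puromycin and RA96 cells differed by -0.10 ± 0.19. At the end Irx3 was still 0.96 ± 0.19 above Control, a 1.94-fold difference. The order was RA48, then RA96 and Puromycin together, then Control.

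The size of the Irx3 differences from Control varied between the array sets more than that of Otx2 or Tshz1. The RA48 difference from Control was 3.59 within the first set and 2.52 within the second. The Puromycin difference from Control was 1.56 within the first set and 0.35 within the second. The 3 Puromycin arrays of the first set read 0.33 to 0.40 and those of the second -0.46 to -0.35. The difference of RA96 from RA48 cells was close in both, at -2.05 and -1.82.

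Tshz1 RNA was far below the embryo reference in Control cells and above it in every treated group. Its log2 ratio lay between -2.21 and -1.47 in Control cells (median -2.09). The RA48 arrays read 1.68, 1.70, 1.74, 1.73 and 2.10. RA96 arrays lay between 1.43 and 1.87 (median 1.63), overlapping RA48, and Puromycin arrays between 0.59 and 0.76 (median 0.68). The Puromycin group lay below every RA96 array and above every Control array.

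Tshz1 averaged 1.79 ± 0.18 in RA48 cells (SD, n = 5) against -1.99 ± 0.29 in Control cells (SD, n = 6). The difference of 3.78 ± 0.12 (SE) is a level 13.7-fold higher, the 8th largest positive difference of that step. RA96 cells differed from RA48 cells by -0.13 ± 0.12. Puromycin cells were lower than RA96 cells by a difference of -0.97 ± 0.11, which is 1.96-fold, with -0.88 and -1.01 within the 2 array sets. At the end Tshz1 was still 2.68 ± 0.11 above Control, 6.39-fold higher. At 96 hours, then, Irx3 stood close to the embryo level and Tshz1 close to its own level at 48 hours.

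Prtg RNA was well above the embryo reference in Control cells, was higher still at 48 hours, and was lower at each later step. Averaged over its 2 probes, its log2 ratio lay between 3.19 and 3.59 in Control cells (median 3.30). The RA48 arrays lay between 3.67 and 4.85 (median 4.64). RA96 arrays lay between 1.88 and 3.02 (median 2.15) and Puromycin arrays between 0.47 and 1.54 (median 1.03). No pair of groups overlapped, although the lowest RA48 array was only 0.08 above the highest Control array.

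Prtg averaged 4.44 ± 0.50 in RA48 cells (SD, n = 5) against 3.35 ± 0.17 in Control cells (SD, n = 6), a difference of 1.10 ± 0.23 (SE) or 2.14-fold. The difference was 1.31 within the first array set and 0.72 within the second. RA96 cells averaged 2.34 ± 0.43 and were 4.31-fold lower than RA48 cells, the 6th largest negative difference of that step. That difference was -2.11 over all arrays, but -1.91 within the first set and -1.88 within the second. The sets are unevenly spread here, with 3 and 2 RA48 arrays and 2 and 4 RA96 arrays. Puromycin cells averaged 1.01 ± 0.45 and were 2.50-fold lower than RA96 cells, the 14th largest negative difference of that step. That difference was -1.32 over all arrays and -1.45 within each set. Over the whole protocol Prtg was 5.04-fold lower in Puromycin than in Control cells (-2.33 ± 0.22), with -2.06 and -2.61 within the 2 array sets. Even so, all Puromycin arrays stayed above the embryo level.

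The 2 Prtg probes gave the same order of groups but not the same sizes. The RA48 difference from Control was 0.54 on probe 5746, whose RA48 arrays (2.82 to 4.20) overlapped its Control arrays (2.71 to 3.33). It was 1.65 on probe 15534, whose RA48 arrays (4.53 to 5.65) lay above all Control arrays (3.21 to 4.03). For RA96 against RA48 the probes gave -1.43 and -2.78, and for Puromycin against RA96 they gave -1.08 and -1.56. Of the Prtg differences, the one at 48 hours was thus the one on which the probes differed most for its size. The files do not say which part of the transcript each probe reads.

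**Figure D2:**
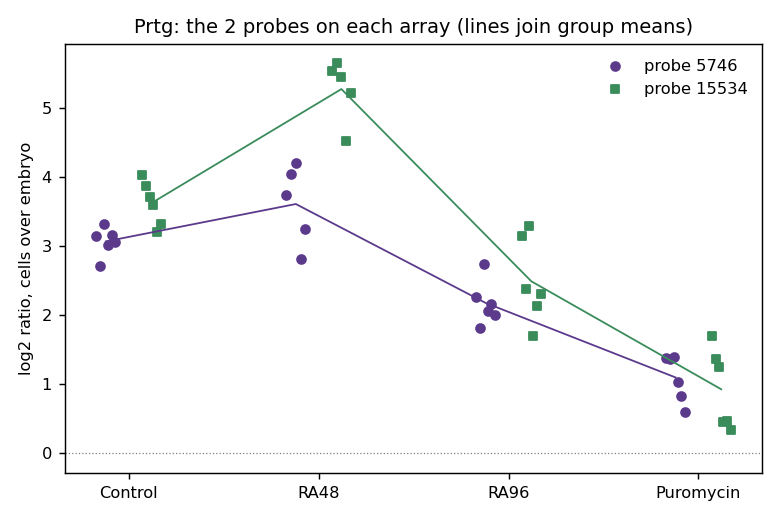
Log2 ratio of cells over embryo (y axis) of the 2 Prtg probes, 5746 (circles) and 15534 (squares), on each array by group (x axis), with lines joining group means. Both probes are highest in RA48 cells and lowest in Puromycin cells, and probe 15534 spans the wider range.

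The members' changes stand against a background of wide change. With limma's adjusted p under 0.05 as the threshold, 34.4% of genes were called between RA48 and Control, and in 25.9% of genes the arrays of these groups did not overlap. All 4 members had non-overlapping arrays there, which the choice of members fixes in part, so nothing is read from that count. For RA96 against RA48, 22.4% of genes were called and 13.7% did not overlap, and Irx3 and Prtg were the members that did not overlap. For Puromycin against RA96 the shares were 7.82% and 6.63%, and Tshz1 and Prtg did not overlap. For Puromycin against Control they were 53.2% and 35.2%, and all 4 members did not overlap. Comparisons that follow each other share arrays, so their values are not independent.

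**Figure D3:**
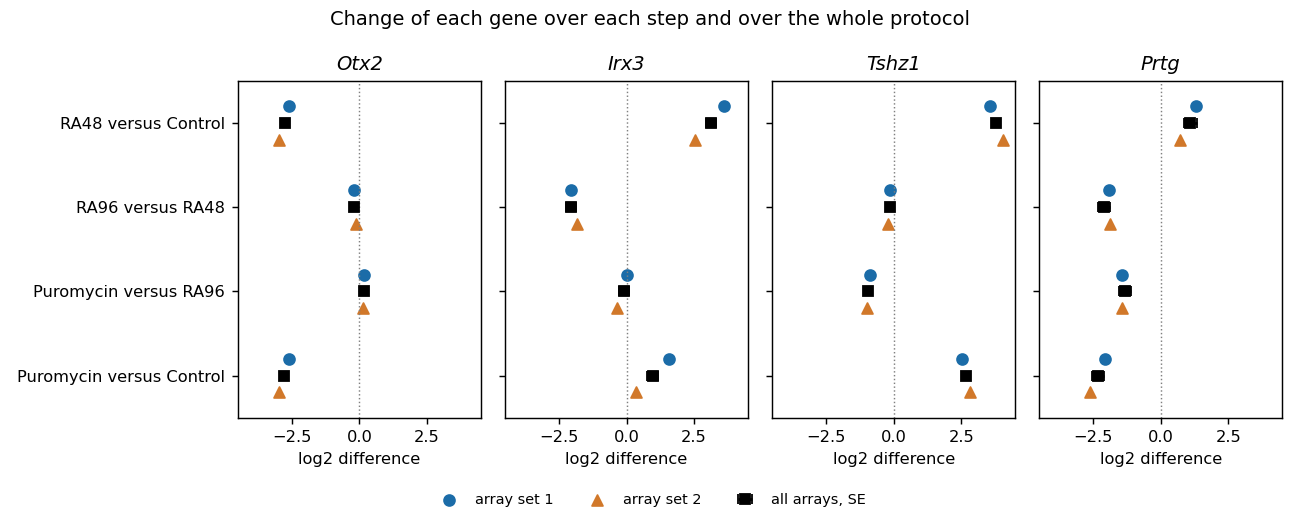
Log2 difference (x axis) of Otx2, Irx3, Tshz1 and Prtg for each comparison (rows), where squares with bars are all arrays with the SE, and circles and triangles the first and second array set alone. The sets have the same sign except for Irx3 between Puromycin and RA96 cells (0.02 and -0.34), and lie farthest apart for Irx3 against Control.

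Close relatives of the members were measured where the array had a probe with 1 symbol, and these were tested with limma over all 17863 rows. Of the 5 other Iroquois genes only Irx5 was measured, and it followed Irx3 at lower size. Irx5 averaged 0.17 in RA48 cells against -0.79 in Control cells, a rise of 0.96 ± 0.12 (SE, adjusted p = 1.1e-06), and it fell by 0.64 ± 0.12 in RA96 against RA48 cells (adjusted p = 0.000595). Its difference of 0.27 ± 0.11 between Puromycin and Control cells had an adjusted p of 0.0482, which did not hold within the second array set or when any 1 of 13 arrays, among them Control replicates 1, 3, 4, 5 and 6 and Puromycin replicates 1 to 3, was left out. Irx5 lies next to Irx3 on the chromosome. Fto, the neighbour on the other side, which encodes an RNA demethylase, was not called in any of the 4 comparisons (differences of -0.12 to 0.13). Mmp2, a matrix protease gene farther along, was not called at 48 hours, when Irx3 was highest, and rose by 1.24 ± 0.30 in RA96 against RA48 cells (SE, adjusted p = 0.0057).

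Of the 2 other Teashirt genes Tshz2 was measured. Tshz2 rose by 1.82 ± 0.18 in RA48 against Control cells (SE, adjusted p = 7.32e-08) and stood 1.78 ± 0.17 above Control in Puromycin cells (adjusted p = 2.05e-08). Tshz2 differed by -0.19 between Puromycin and RA96 cells and was not called there, whereas Tshz1 differed by -0.97; the difference between the genes was not tested. The gene beside Tshz1, Zadh2, encodes an oxidoreductase and ran much like it. Zadh2 averaged -1.48, 0.70, 0.69 and 0.14 in Control, RA48, RA96 and Puromycin cells, rising by 2.19 ± 0.14 in RA48 cells (SE, adjusted p = 6.4e-11) and falling by 0.55 ± 0.13 in Puromycin against RA96 cells (adjusted p = 0.0149). The next gene along, Zfp407, was not called in any of the 4 comparisons (differences of -0.04 to 0.02).

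Of the 4 other DCC family genes Dcc, Neo1 and Igdcc3 were measured. Neo1, encoding neogenin, a receptor for netrins and repulsive guidance molecules, rose by 0.62 ± 0.10 in RA48 against Control cells (SE, adjusted p = 8.56e-05). Dcc rose by 0.69 ± 0.16 in RA96 against RA48 cells (SE, adjusted p = 0.00506), a step in which Prtg differed by -2.11. A list of netrin and repulsive guidance genes had 8 measured, among them the bone morphogenetic protein ligands Bmp2 and Bmp4 and their receptor Bmpr1a. Of these 8, Bmpr1a and Neo1 rose and none fell in RA48 against Control cells, against 18.0% and 16.4% of all genes. Igdcc3 was not called in any comparison, and neither was Nedd4, which encodes a ubiquitin ligase and lies next to Prtg. Of the other 2 measured genes near Prtg, Tex9 fell by 0.91 ± 0.16 (SE, adjusted p = 0.0001) and Rfx7 by 0.38 ± 0.09 (SE, adjusted p = 0.00092) in Puromycin against Control cells, in which Prtg was lower too. Tex9 also fell by 0.51 ± 0.17 in RA48 against Control cells (SE, adjusted p = 0.0316), where Prtg was higher, a call that was lost without Control replicate 2 or 3 or RA48 replicate 4 or 5. Otx1 and Crx, the relatives of Otx2, were not analysed here. The nearest genes on either side of Otx2, Tmem260 and Exoc5, did not fall with it at 48 hours: Tmem260 rose by 0.84 ± 0.20 (SE, adjusted p = 0.00232) and Exoc5 differed by -0.03 (adjusted p = 0.832). Naa30, a gene of an N-terminal acetyltransferase farther along on the side of Exoc5, did fall at 48 hours, by 0.67 ± 0.09 (SE, adjusted p = 6.92e-06), and its r with Otx2 over the 23 arrays was 0.766. Naa30 rose by 0.35 ± 0.09 in Puromycin against RA96 cells (SE, adjusted p = 0.0214), where Otx2 differed by 0.17. That call was lost with group and array set as a random block. The other measured gene near Otx2, Ktn1, was not called in any of the 4 comparisons. In all, 12 of the 24 protein-coding genes nearest to the members (3 on each side, by RefSeq order) were measured.

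**Figure D4:**
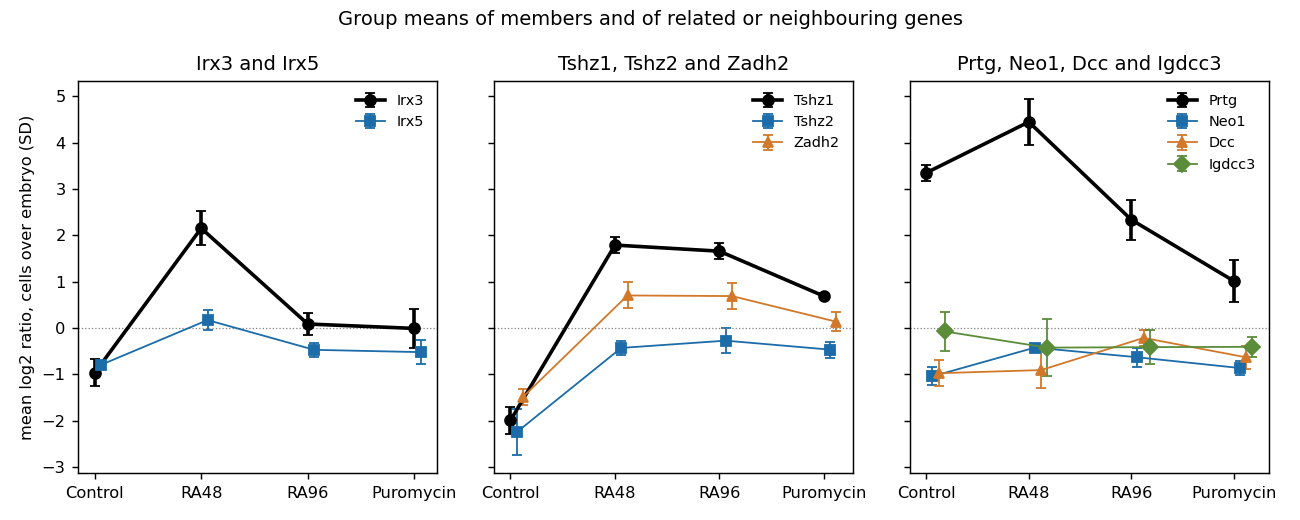
Mean log2 ratio of cells over embryo with SD (y axis) by group (x axis) for Irx3 with Irx5, Tshz1 with Tshz2 and its neighbour Zadh2, and Prtg with Neo1, Dcc and Igdcc3. The courses may be compared, but the heights of different genes may not, and Irx5 and Zadh2 follow their neighbours Irx3 and Tshz1 over a narrower range.

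The genes whose course was most like each member were ranked by Pearson's r over the 23 arrays, which share the embryo reference and the 2 array sets. Otx2 was most like Utf1, a chromatin-bound factor of pluripotent cells (r = 0.985), Pim2, a kinase (0.985), Gpr37, a receptor (0.984), Galt, an enzyme of galactose use (0.984), and Rest, a repressor of neuronal genes (0.98). All of these were high in Control cells, as Utf1 shows at 3.25, -0.24, -0.64 and -0.57 in Control, RA48, RA96 and Puromycin cells. Rest differed in that it stayed above the embryo level, at 2.16, 1.14, 1.05 and 1.15.

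Irx3 was most like Slc22a23, a solute carrier (r = 0.968), Irx5 (0.961), Efnb1, an ephrin ligand (0.95), Adgrf5, an adhesion receptor (0.946), and Smarca5, an ATPase of chromatin remodelling complexes (0.934). Efnb1 averaged -0.76, 1.04, 0.15 and 0.10 in Control, RA48, RA96 and Puromycin cells. Tshz1 was most like Mex3b, an RNA-binding protein gene (0.986), Arhgap28 (0.984), N4bp2 (0.98), Gab1, a signalling adaptor (0.973), and Lgals3, which encodes galectin-3 (0.972). Mex3b averaged -1.11, 2.04, 2.04 and 1.31 over the 4 groups in that order. Prtg was most like Sox13, a transcription factor (0.965), Ston2, an endocytic adaptor (0.963), Tnfrsf19, a receptor (0.963), Lefty1, a secreted antagonist of Nodal (0.948), and Rab3b, a vesicle GTPase (0.944). Lefty1 averaged 3.85, 5.88, 2.23 and 1.52 in the same order, with its highest level in RA48 cells as for Prtg.

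Lists of genes from the same parts of the embryo put the members in context. Of 11 forebrain and midbrain factors measured, only Nr2f1, an orphan nuclear receptor, was called in RA48 against Control cells. It rose by 2.04 ± 0.34 (SE, adjusted p = 6.41e-05). None was called lower there, while Otx2, a member that carries no test, had a lower level. Nr2e1, another nuclear receptor, differed by -0.21 ± 0.08 (SE, adjusted p = 0.0646). It was called lower with each array centred on its median, with the replicate block, with the array set as a block and within the first array set. It was also called lower without Control replicate 5 or 6 or RA48 replicate 1 or 4. Dlx1 and Dlx5 were called lower within the first array set, Dlx5 with array weights, and Dlx1 without RA48 replicate 4. Within the second set En1 was called lower, and Emx2 and Gbx2 higher. Gbx2 is also on the list of retinoic acid response genes given below. Pax6 was called higher with array weights or without Control replicate 3, and Emx2 without Control replicate 2. Over all genes, 18.0% rose and 16.4% fell in this comparison. The median difference of the list was -0.06, against -0.02 over all genes. Of 12 anterior organiser and epiblast genes, 3 rose and 2 fell. Gsc, a homeodomain factor of the organiser, fell by 1.87 ± 0.26 (SE, adjusted p = 7.3e-06) and Fgf4, a growth factor of the epiblast, fell by 2.10 ± 0.15 (SE, adjusted p = 3.28e-10), while Lefty1 rose by 2.03 ± 0.19 (SE, adjusted p = 2.5e-08). The Wnt antagonist Dkk1 rose by 1.92 ± 0.33 (SE, adjusted p = 0.000105).

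Of 14 Hox genes measured, which give positions along the trunk, 4 rose and none fell in RA48 against Control cells, as Irx3 and Tshz1 were higher there. Hoxa5 rose by 4.42 ± 0.18 (SE, adjusted p = 5.74e-14) and Hoxb9 by 1.88 ± 0.21 (SE, adjusted p = 5.12e-07). Of 16 retinoic acid response genes, 7 rose and 1 fell, led by the homeodomain cofactor Meis1 at 3.22 ± 0.15 (SE, adjusted p = 4.06e-13) and the receptor Rarb at 3.01 ± 0.20 (SE, adjusted p = 1.08e-10). By contrast none of 8 trunk and axial mesoderm genes was called, and their median difference was -0.09. Of 11 neural progenitor genes, 6 rose, among them the Hedgehog pathway factors Gli2 and Gli3 at 1.05 each, and Sox2 fell by 2.23 ± 0.51 (SE, adjusted p = 0.00203).

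In RA96 against RA48 cells, where Irx3 and Prtg were lower, 4 of 12 organiser and epiblast genes fell, Lefty1 by 3.65 ± 0.19 (SE, adjusted p = 4.33e-11), and none rose, against 10.8% of all genes that rose and 11.6% that fell. The fall of Dkk1, 1 of these 4, was no longer called without RA48 replicate 1, 2 or 3, and with group and array set as a random block Lefty1 alone of the 4 stayed called. Of 11 forebrain and midbrain factors Emx2 alone was called, rising by 0.91 ± 0.24 (SE, adjusted p = 0.0113). Stra6, a retinoic acid response gene, was lower (-1.38 ± 0.17, SE, adjusted p = 9.16e-06). Pbx2 of the same list was lower too (-0.61 ± 0.12, SE, adjusted p = 0.000913), a call lost with the random block, and no other gene of that list was called. In Puromycin against RA96 cells, where Tshz1 and Prtg were lower, 2 of 14 Hox genes fell and none rose, against 3.12% and 4.7% of all genes. Hoxa5 fell by 1.58 ± 0.18 (SE, adjusted p = 8.31e-06) and Hoxb5 by 0.65 ± 0.11 (SE, adjusted p = 0.000636). Of the response genes Rarb fell by 1.56 ± 0.19 (SE, adjusted p = 2.55e-05). Stra6 (-1.31), Meis2 (-0.59) and Pbx2 (-0.54) were also called lower (adjusted p of 4.26e-05, 0.0193 and 0.00397), and none was called higher. With group and array set as a random block Rarb stayed called, while Stra6 and Meis2 did not.

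Over the whole protocol, in Puromycin against Control cells, 24.6% of all genes rose and 28.6% fell. Of the 12 organiser and epiblast genes 6 fell and 1 rose, with a median difference of -0.45 against -0.06 over all genes. Gsc fell by 1.89 ± 0.25 (SE, adjusted p = 1.7e-06), close to its difference at 48 hours, as Otx2 was. In between Gsc was higher, with means of -0.90, -0.22 and -0.92 in RA48, RA96 and Puromycin cells. Its RA96 difference from RA48 was not called with all arrays. It was called with array weights, within the first array set, and without RA48 replicate 4 or RA96 replicate 3. Of the 14 Hox genes 6 rose and 1 fell, and Hoxa5 was still 3.52 ± 0.18 above Control (SE, adjusted p = 2.76e-13), as Tshz1 was still above it. Of 8 trunk and axial mesoderm genes 4 fell and none rose, among them Lef1, a Wnt pathway factor, by 0.62 ± 0.10 (SE, adjusted p = 4.67e-05). Both called forebrain and midbrain factors rose, Emx2 by 1.69 ± 0.23 (SE, adjusted p = 2.97e-06) and Nr2f1 by 1.60 ± 0.32 (SE, adjusted p = 0.000319), while Otx2 was 6.96-fold lower. En1, Pax5 and Gbx2 of this list were called lower with the array set as a block, with the replicate block and within the first array set. Some other settings also called some of these lower, or called Pax6 or Dlx2 higher.

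**Figure D5:**
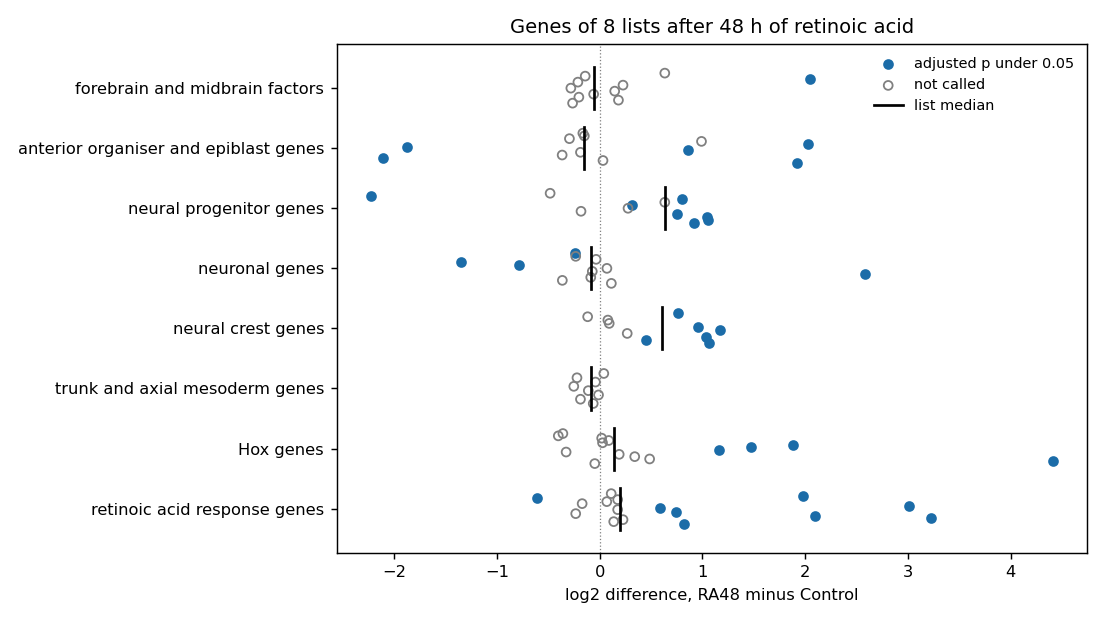
Log2 difference of RA48 minus Control cells (x axis) for each measured gene of 8 lists (rows), with filled points for adjusted p under 0.05, open points for genes not called, and a line for the list median. Hox and retinoic acid response genes include the largest rises, led by Hoxa5 at 4.42, while no trunk and axial mesoderm gene is called.

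Markers of other cell types moved with the members in RA48 against Control cells, in which 18.0% of all genes rose and 16.4% fell. Foxa2, Fgf4 and Sox2 are counted both as markers here and in the lists above, so these counts are not separate. Of 7 extraembryonic endoderm markers measured 5 rose, and the mean log2 ratio of the 7 ranged from -0.12 to 0.03 over RA48 arrays and from -1.35 to -0.75 over Control arrays. Of 6 pluripotency markers 4 fell, with means of 0.34 to 0.66 over RA48 arrays and 1.77 to 2.25 over Control arrays. Of 8 neuron markers 1 rose and 2 fell, with overlapping means of -0.79 to -0.41 in RA48 and -0.99 to -0.53 in Control cells, and all 3 endothelial markers rose. The call of the endothelial marker Pecam1 was lost without Control replicate 1, 2 or 3 or RA48 replicate 4 or 5, and that of the neuron marker Stmn2, which fell, without any 1 of 18 arrays, among them Control replicates 4 to 6 and RA48 replicates 1 to 3. Of 5 smooth muscle markers 3 rose and none fell, with means of -1.37 to -0.83 in RA48 and -3.04 to -1.85 in Control cells, and of 4 neural crest markers 2 rose and none fell, with means of -0.84 to -0.44 in RA48 and -1.26 to -0.91 in Control cells.

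In RA96 against RA48 cells, where Irx3 and Prtg were lower, markers moved as well. Over all genes 10.8% rose and 11.6% fell in that comparison. Of the 4 neural crest markers 2 rose and 2 fell, with Ednrb, an endothelin receptor, at -0.87 ± 0.14 (SE, adjusted p = 0.000134) and Snai2, a zinc finger repressor, at 0.97 ± 0.13 (SE, adjusted p = 1.3e-05). Their means overlapped, at -0.77 to -0.45 in RA96 and -0.84 to -0.44 in RA48 cells. Of the 7 extraembryonic endoderm markers 2 rose and 2 fell, with means of 0.04 to 0.34 in RA96 and -0.12 to 0.03 in RA48 cells. Of 6 pluripotency markers 2 fell, and of 8 neuron markers and 5 smooth muscle markers 2 each rose. In Puromycin against RA96 cells, where Tshz1 and Prtg were lower, 1 extraembryonic endoderm marker rose, 1 fell, and 1 neuron marker, Dcx, fell, while no smooth muscle, pluripotency or neural crest marker was called. Over all genes 4.7% rose and 3.12% fell in Puromycin against RA96 cells. The part of these markers in the members' changes was not tested.

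With group and array set as a random block, 33 of the 45 relatives, neighbours, markers and leading list genes called in RA48 against Control cells stayed called, and 36 of 56 in Puromycin against Control, but only 5 of 36 in RA96 against RA48 and 2 of 12 in Puromycin against RA96. Among the calls lost were the falls of Irx5 after 48 hours, Zadh2 and Hoxb5 after puromycin and Sox2 at 48 hours, and the rises of Dcc and Emx2 at 96 hours and Tmem260 at 48 hours.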

How the data were processed

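Total RNA of A404 cells and of pooled mouse embryos was hybridised to 23 two-colour Agilent oligonucleotide arrays, read on a G2565AA scanner and quantified with Feature Extraction A.6.1.1, per the labels. The authors deposited 1 value per probe and array, read here as a log10 ratio of Cy5 over Cy3. No dye normalization, filter, log base or genome build is given in the sources used here. Values were divided by log10 of 2 (0.301). Of 21446 rows, 1166 that looked like control spots (at most 6 significant digits on every array) were left out. Of 20280 probes, 11100 had 1 symbol in the platform annotation, 442 several and 8738 none; the gene identifiers of 37 had no match in RefSeq, and 0 symbols changed. Probes were averaged per symbol, giving 8683 genes among 17863 rows.

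Differences, standard errors and p-values came from limma 3.58.1 in R 4.3.3 (lmFit and eBayes, group as the only factor, all 23 arrays, Benjamini-Hochberg over all rows, threshold 0.05). The fit was tested on simulated data with independent spread on each array. These had no array sets, so they cannot show how the fit behaves with the 2 sets seen here. The number of arrays limits the precision. The labels state no test. Same-numbered arrays of RA48 and Control deviated together (r of 0.37 to 0.52), as did those of Puromycin and Control (0.30 to 0.49). Those of the other comparisons did not all do so (replicate 2 at -0.46 and -0.38), and 7 of 23 arrays correlated best with their own number. In Control, RA48 and Puromycin, replicates 1 to 3 form the first array set, so same-numbered arrays also share a set. RA96 replicate 2 is in the second set, unlike replicate 2 of the other groups. Whether the numbers pair cultures is therefore not known.

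Named in the text are the 4 members, the 5 genes most like each by r (clone, predicted and RIKEN names passed over), up to 3 called genes each way per list and comparison, all measured relatives, and Acta2 and Nanog. Genes beside the members were added by position after values were seen. Members and lists were chosen with earlier results of these data known. Alternatives were other scalings, single probes, blocks, weights, array sets, variance models, row filters, the log base and leaving out each array.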

Additional observations from a re-analysis of the deposited data

Results flagged for a closer look

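Among the 16 sets of values formed by the 4 genes and the 4 groups, 1 array stood apart from the others of its group. Tshz1 read 2.10 on RA48 replicate 5, while the other 4 RA48 arrays lay between 1.68 and 1.74. Its gap to the nearest array was 0.847 of the whole range, above the critical value of 0.71 for 5 arrays. Chance flags about 1 in 20 such groups. Replicates 4 and 5 are the RA48 arrays of the second set, in which replicate 4 read 1.73.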

How the results depend on the processing

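Across 38 alternative settings, 581 of 612 values of the 4 genes moved by less than 1 SD between replicates and 31 moved by more. The sign changed in 2 of the 612, both for the small Irx3 difference of Puromycin from RA96 (-0.10), which was 0.02 within the first array set and with array weights. Leaving out 1 array at a time, the difference of RA48 from Control ranged from -2.81 to -2.73 for Otx2, 3.02 to 3.25 for Irx3, 3.70 to 3.88 for Tshz1 and 0.99 to 1.29 for Prtg. Quantile normalization gave -2.56 for Otx2 in RA48 against Control, and -2.58 for Otx2 and 2.48 for Tshz1 in Puromycin against Control. Prtg moved with the probe used, to 0.54 and 1.65 for RA48 against Control and to -1.43 and -2.78 for RA96 against RA48. Within the first array set, RA48 minus Control was -2.60 for Otx2, 3.59 for Irx3 and 3.55 for Tshz1, and Puromycin minus Control was -2.62 for Otx2 and 1.56 for Irx3. Within the second set these were -2.97, 2.52 and 4.05, and -2.98 and 0.35. If the deposited ratios were log2, the differences for RA48 against Control would be -0.83 for Otx2, 0.94 for Irx3, 1.14 for Tshz1 and 0.33 for Prtg. Those for RA96 against RA48 would be -0.061 for Otx2, -0.62 for Irx3 and -0.63 for Prtg, those for Puromycin against RA96 would be 0.052 for Otx2, -0.29 for Tshz1 and -0.40 for Prtg, and those for Puromycin against Control would be -0.84 for Otx2, 0.29 for Irx3, 0.81 for Tshz1 and -0.70 for Prtg. The number of rows called, 4642, 3540, 942 and 8263 for RA48 against Control, RA96 against RA48, Puromycin against RA96 and Puromycin against Control, depended on the model of the spread. Array weights gave 8135, 10273 and 2609 rows for the first 3 of these, and the array set as a block gave 7029, 5726 and 2281. Within the first set RA96 against RA48 had 6697 and Puromycin against RA96 had 1691 called rows, and within the second set they had 2267 and 1638. With group and set as a random block 1437, 248, 17 and 3100 rows were called. Without RA48 replicate 1, 2 or 3 the count for RA96 against RA48 was 2239, 2305 or 2227, and over all single arrays left out the 4 counts ranged over 4168 to 4692, 2227 to 4198, 641 to 1083 and 7640 to 8396. The replicate block gave 5817, 4706, 1784 and 9776 called rows. In the 2 comparisons with Control, where same-numbered arrays deviated together, it ended 1 call among the relatives, neighbours, markers and leading list genes, that of Bmp2 in Puromycin against Control. Reversed values were 0.01 for Bmp2 in Puromycin against Control within the second set, -0.37 for Igdcc3 in RA96 against RA48 with array weights, -0.24 for Nedd4 in RA96 against RA48 within the first set, and 0.34 for Zfp407 in Puromycin against Control within the first set. The causes were not tested. Signal over background was not used here, so it cannot be said which ratios rest on dim probes.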
